A study of Mus musculus with 8 samples.

Results

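The genes described here encode the DNA-binding subunits of the transcription factor NF-κB (*Nfkb1*, *Nfkb2*, *Rela* and *Relb*), the IκB proteins that hold it in the cytoplasm (*Nfkbia*, *Nfkbib* and *Nfkbie*), and the feedback regulators *Tnfaip3*, *Ier3* and *Bcl3*. They were chosen by name, through their Ensembl identifiers, and are 10 of the 45706 identifiers in the count table. Liver RNA came from 8 male mice of the strain given as C56B6/J in the labels, injected in the tail vein at 6 weeks of age with an adeno-associated virus (AAV). The 4 mice labelled *Srsf10-kd* received a mirE/shRNA, a short hairpin RNA in a microRNA backbone, directed to *Srsf10*, which encodes an SR protein that binds RNA, and the 4 *Ctrl* mice received a control mirE/shRNA. In both groups the vector had the chicken β-actin promoter, which is not restricted to hepatocytes, and the vector's GFP cassette, and all mice were placed 4 weeks after injection on a high fat diet (HFD) with 60% of calories from fat for 12 weeks, so no lean or uninjected liver was among the samples. Poly(A) RNA of whole liver was sequenced, and the level of a gene is given as CPM, its read count relative to the library size after edgeR's TMM scaling.

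NF-κB is a dimer of Rel-family proteins. In resting cells IκB proteins mask it in the cytoplasm. Signals from receptors such as those for TNF, interleukin-1 and bacterial lipopolysaccharide activate the IκB kinase complex, IκBα is phosphorylated and degraded, and the dimer enters the nucleus, where it induces chemokines, adhesion molecules and survival genes together with its own inhibitors. *Nfkbia* and *Tnfaip3* are textbook members of this negative feedback. In the liver the pathway operates in hepatocytes as well as in Kupffer, endothelial and stellate cells.

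Total counts per liver lay between 50456404 and 59697241, and each of the 10 genes had at least 73 counts in each liver. Hepatocyte markers summed to 86200 to 118000 CPM over the 8 livers, so the libraries carried the expression of liver. *Srsf10* itself had 34.0 to 41.0 CPM in the *Srsf10-kd*-labelled livers and 30.9 to 35.3 CPM in *Ctrl* (log2 fold change 0.15, edgeR adjusted p = 0.378). Its RNA was thus not lower in these counts where the label says *Srsf10-kd*, and groups are named by label alone. The paper reports less SRSF10 protein by western blot and less *Srsf10* RNA by qPCR in livers of knockdown mice. Whether these 8 livers were among those measured is not stated there. Of the 75-base stretches of *Srsf10*, 8.5% also occur in AC126031.3, Gm5446 or Gm9134 transcripts, so part of its count is uncertain. *Ppara*, which encodes the fatty acid-sensing nuclear receptor PPARα, was among the 11 genes with an adjusted p under 0.05 in edgeR's quasi-likelihood test (log2 fold change -1.24, adjusted p = 0.0166). *Ctrl* 3 lay at an end of the *Ctrl* group for each NF-κB gene. In each of the 10 genes it was either the highest *Ctrl* liver (*Nfkbia*, *Nfkbib*, *Nfkbie*, *Relb* and *Ier3*) or the lowest (*Nfkb1*, *Nfkb2*, *Rela*, *Tnfaip3* and *Bcl3*), and each gene's value without it is given beside its result. The margin was small for *Tnfaip3* (3.66 CPM against 3.69 CPM in *Ctrl* 4). Some genes outside the pathway did likewise. Markers of the same cell type differed in this. *Ctrl* 3 was the lowest control for the albumin gene *Alb* (45800 CPM) and the highest for *Apoa1* (12300 CPM), both hepatocyte markers. Of the Kupffer cell and macrophage markers, it was the highest control for *Clec4f* (97.1 CPM) and at neither end for *Csf1r* (32.8 CPM). For *Nfkbiz* it was at neither end. The share of all genes with *Ctrl* 3 at an end was not counted. A slope on transcript length was taken from each liver's log2 levels relative to each gene's mean over the 8 livers. Its sign is therefore relative to the other livers. It was -0.03 in *Ctrl* 3, against 0.091 to 0.133 in the other *Ctrl* livers. Among the *Srsf10-kd*-labelled livers it was -0.181 in liver 3 and -0.064 to -0.024 in the others.

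The IκBα gene *Nfkbia* and the stress-response gene *Ier3* had higher RNA levels in all 4 *Srsf10-kd*-labelled livers than in any *Ctrl* liver, by 43.9% and 52.6% in the group means. *Relb*, a subunit of the alternative NF-κB arm, was 33.4% higher with an overlap of the groups. The other 7 genes had mean differences within the spread between livers. In edgeR's quasi-likelihood test with Benjamini-Hochberg adjustment, 0 of the 10 passed an adjusted p of 0.05, where 0.071% of the 15491 genes tested did. All 11 genes that passed were lower and 0 were higher. By the unadjusted p under 0.05, 3 of 10 were higher (*Nfkbia*, *Ier3* and *Relb*), against 11.2% of all genes, and 0 were lower, against 10.6%. The groups did not overlap for 2 genes in the higher direction, against 6.73% of all genes, and for 0 in the lower direction, against 7.53%. DESeq2, which the study used, called 2 of the 10 higher (*Nfkbia* and *Ier3*) and 0 lower, where it called 2.02% and 3.25% of 15643 genes. Limma-voom with sample quality weights called the same pair, where it called 5.03% of all genes higher and 6.68% lower. Of the 10 fold changes, 8 were above 0 and the median log2 fold change was 0.12, beside 51.3% above 0 and a median of 0.013 over all genes tested. *Nfkbia* was named by the study on these same livers, so its direction is not independent evidence.

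**Figure D1:**
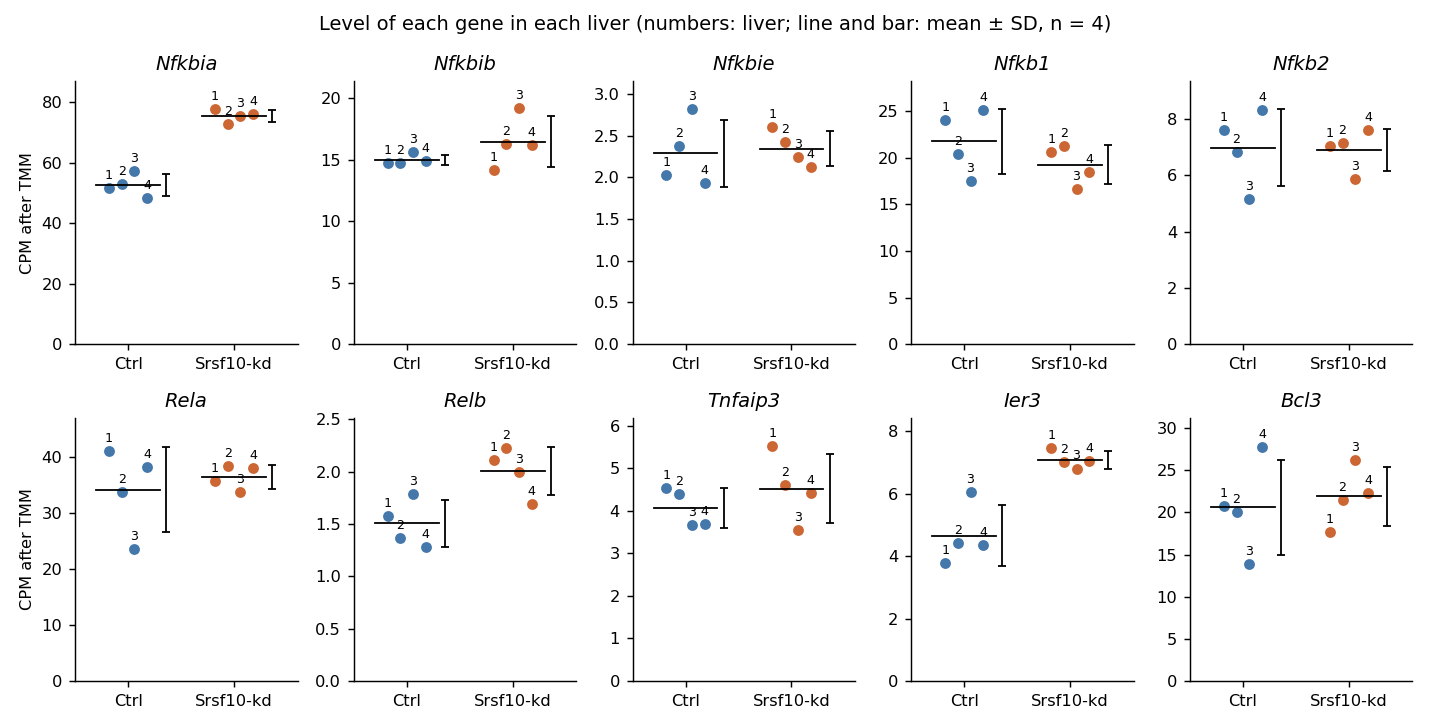
Level of the 10 NF-κB subunit and feedback genes in each liver, in CPM after TMM scaling on a linear axis from 0; each point is 1 liver with its number, lines are means and bars SD (n = 4). The groups separate for *Nfkbia* and *Ier3*, and *Ctrl* 3 lies at an end of its group in each of the 10 plots.

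κB elements, the short DNA sequences that NF-κB dimers bind, lie near the start of many of these genes, and they are shown because several of these genes are textbook targets of the factor that they encode or restrain. The κB consensus was searched on both strands in RefSeq promoters of GRCm38.p6, from 250 bases before to 50 bases after each transcription start. Of the 10 genes, 8 had such a window and 6 of these (75%) held a match, beside 1388 of 27025 genes (5.14%) over all RefSeq promoters. *Nfkbib* and *Rela* had no match in their windows. Below, 1 window of 30 bases per gene is written 5′ to 3′ on the strand of the gene, and capitals mark the match.
*Nfkbia*: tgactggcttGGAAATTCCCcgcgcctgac
*Ier3*: tgcgaagggcGGAGTTCCCCccggcccggc
*Tnfaip3*: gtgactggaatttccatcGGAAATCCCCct
*Nfkbie*: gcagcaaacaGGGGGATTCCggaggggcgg
*Nfkb2*: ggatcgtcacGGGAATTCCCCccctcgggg
*Bcl3*: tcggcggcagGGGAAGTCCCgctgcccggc
The *Nfkbia* window is chr12:55492657-55492686 on the minus strand, with the match at -29 to -20 relative to the RefSeq start and outside the annotated gene. The *Ier3* window is chr17:35821611-35821640 on the plus strand, with the match at -92 to -83, also outside the gene. The *Tnfaip3* window, chr10:19015411-19015440 on the minus strand, lies in an annotated intron just before an internal RefSeq start, and a further match lies upstream in the same intron. The *Nfkbie* window, chr17:45555584-45555613 on the plus strand, lies outside the gene with its match at -106 to -97. In *Nfkb2* the window chr19:46304688-46304717 on the plus strand lies in an annotated exon and its 11 capital letters match on both strands, as overlapping matches. Further *Nfkb2* matches lie downstream of it. The *Bcl3* window, chr7:19822734-19822763 on the minus strand, lies in an exon with its match at 3 to 12, counting the start as 1. A match of letters is a description and does not show binding. *Nfkbia* and *Ier3*, whose groups separated, and *Tnfaip3*, *Nfkbie*, *Nfkb2* and *Bcl3*, whose groups did not, all held one.

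*Nfkbia* (ENSMUSG00000021025, GRCm38 chromosome 12 from 55489410 to 55492647, minus strand) encodes IκBα, the inhibitor that is degraded and resynthesised within a signalling cycle. Its levels were 77.6, 72.9, 75.5 and 76.2 CPM in *Srsf10-kd*-labelled livers 1 to 4 and 51.6, 52.9, 57.2 and 48.3 CPM in *Ctrl* 1 to 4. The groups did not overlap, and the lowest *Srsf10-kd*-labelled liver was well above *Ctrl* 3, the highest control. The log2 fold change was 0.52 with a 95% interval from 0.32 to 0.73 (standard error 0.09, edgeR adjusted p = 0.0826). By unadjusted p (0.000211) it ranked 36 among the 15491 genes. A two-sided exact permutation test of log2 CPM gave p = 0.0286, the smallest that 4 livers against 4 allow. Without *Ctrl* 3 the edgeR adjusted p was 0.0283, at a log2 fold change of 0.57. Leaving out the highest control widens the difference, and 544 of 15682 genes passed in that fit. With any other single liver left out, the edgeR adjusted p of *Nfkbia* ran from 0.0518 (without *Srsf10-kd* 3) to 0.309 (without *Ctrl* 2). In bulk tissue, a change in the number of cells of a type and a change in RNA per cell cannot be told apart.

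Beside this result, the summed level of 5 cholangiocyte markers (*Krt19*, *Krt7*, *Epcam*, *Sox9* and *Spp1*) was 46.5 to 68.6 CPM in the *Srsf10-kd*-labelled livers and 31.4 to 39.1 CPM in *Ctrl*. All 5 had log2 fold changes above 0 (median 0.56), where 51.3% of all genes did, and 3 had an unadjusted p under 0.05 in the higher direction, where 11.2% of all genes did. None of the 5 was at 0 in any liver. Their part in the *Nfkbia* and *Ier3* results was not tested. The summed levels of the other lists overlapped between groups. Kupffer cell and macrophage markers had 167 to 293 CPM against 213 to 303 CPM in *Ctrl*, and sinusoidal endothelial markers 224 to 272 CPM against 241 to 267 CPM. Stellate cell markers had 157 to 279 CPM against 178 to 202 CPM. Lymphocyte markers had 3.15 to 4.67 CPM against 3.48 to 5.05 CPM, and neutrophil markers 1.03 to 3.12 CPM against 1.91 to 2.11 CPM, with *Ly6g* and *Mpo* at 0 in some livers.

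The other IκB genes had smaller estimates than *Nfkbia*, with 95% intervals that overlapped its interval and included 0, and the difference between the genes was not tested. *Nfkbib* (ENSMUSG00000030595, chromosome 7 from 28758251 to 28767512), which encodes IκBβ, had 14.2, 16.3, 19.2 and 16.2 CPM in *Srsf10-kd*-labelled livers 1 to 4 and 14.7, 14.7, 15.6 and 14.9 CPM in *Ctrl*. The *Ctrl* livers were close together and lay within the range of the other group, and the fitted log2 difference was 0.14 (standard error 0.11, 95% interval -0.10 to 0.38, edgeR adjusted p = 0.444) and 0.16 without *Ctrl* 3. *Nfkbib* shares exonic positions with *Ccer2* and *Sirt2* on the opposite strand, and 11.6% of its 75-base stretches also occur in *Ccer2* transcripts, so part of its count is uncertain. *Nfkbie* (ENSMUSG00000023947, chromosome 17 from 45555703 to 45563169), the IκBε gene, had 2.60, 2.42, 2.24 and 2.12 CPM against 2.03, 2.37, 2.82 and 1.93 CPM. Its groups overlapped, the highest value being *Ctrl* 3, and the log2 difference was 0.04 with an interval from -0.33 to 0.40 (edgeR adjusted p = 0.909), and 0.15 without *Ctrl* 3. *Nfkbiz* and *Nfkbid*, which encode nuclear IκB proteins, had means of 12.9 ± 0.421 and 0.408 ± 0.0654 CPM in the *Srsf10-kd*-labelled livers (SD, n = 4) and 11.9 ± 1.04 and 0.378 ± 0.0879 CPM in *Ctrl*. Their log2 fold changes of 0.12 and 0.10 had edgeR adjusted p of 0.489 and 0.813.

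Among the subunits, *Relb* (ENSMUSG00000002983, chromosome 7 from 19606217 to 19629438), the partner of the *Nfkb2* product in the alternative arm, had 2.11, 2.23, 2 and 1.69 CPM in the *Srsf10-kd*-labelled livers and 1.58, 1.37, 1.79 and 1.28 CPM in *Ctrl*. *Ctrl* 3 lay above *Srsf10-kd* 4, and the other livers kept to their groups. Its log2 fold change of 0.42 (standard error 0.17, 95% interval 0.05 to 0.78) had an unadjusted p of 0.0306 and an adjusted p of 0.197 by edgeR. DESeq2 and limma-voom gave adjusted p of 0.175 and 0.0747, and the two-sided exact permutation p was 0.0571. Without *Ctrl* 3, the highest control, the log2 fold change was 0.51 (edgeR adjusted p = 0.109). With any other single liver left out, the edgeR adjusted p of *Relb* ran from 0.244 to 0.388. With 73 to 121 counts per liver it was the gene with the fewest counts of the 10.

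*Rela* (ENSMUSG00000024927, chromosome 19 from 5637483 to 5648130) encodes the transactivating subunit of the canonical dimer. It had 35.7, 38.4, 33.8 and 38.0 CPM in the *Srsf10-kd*-labelled livers and 41.1, 33.8, 23.6 and 38.1 CPM in *Ctrl*. The low value of *Ctrl* 3 set the direction, as the log2 difference was 0.10 (standard error 0.16, 95% interval -0.26 to 0.45, edgeR adjusted p = 0.729) with it and -0.05 without it. *Nfkb1* (ENSMUSG00000028163, chromosome 3 from 135584655 to 135691547), which encodes the DNA-binding partner of the canonical dimer and its precursor, had 20.6, 21.2, 16.6 and 18.5 CPM against 24.0, 20.4, 17.5 and 25.1 CPM. Liver 3 was the lowest in each group. Its log2 difference was -0.18 (95% interval -0.48 to 0.13, edgeR adjusted p = 0.436), and -0.27 without *Ctrl* 3 (edgeR adjusted p = 0.185). *Nfkb2* (ENSMUSG00000025225, chromosome 19 from 46304320 to 46312385) had 7.03, 7.15, 5.86 and 7.61 CPM against 7.60, 6.85, 5.17 and 8.34 CPM, again with liver 3 lowest in each group. The *Nfkb2* difference was -0.02 on the log2 scale (95% interval -0.38 to 0.34, edgeR adjusted p = 0.956) and -0.14 without *Ctrl* 3, and 13.6% of its 75-base stretches are shared with *Psd* or AC114539.1 on the opposite strand. *Rel*, the remaining family member, had 5.34 ± 0.458 CPM against 6.33 ± 0.854 CPM in *Ctrl* (SD, n = 4), with a log2 fold change of -0.25 (edgeR adjusted p = 0.292) that was 0.02 after removal of the length trend of each library.

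*Ier3* (ENSMUSG00000003541, chromosome 17 from 35821684 to 35822923), an immediate early gene that NF-κB induces and that affects cell survival, had 7.48, 7.03, 6.81 and 7.04 CPM in the *Srsf10-kd*-labelled livers and 3.77, 4.42, 6.05 and 4.35 CPM in *Ctrl*. The first group was tight, and *Ctrl* 3 lay between it and the other 3 controls. The log2 fold change of 0.61 (standard error 0.15, 95% interval 0.27 to 0.95) had an unadjusted p of 0.00255 and an adjusted p of 0.116 by edgeR, and the two-sided exact permutation p was 0.0286. DESeq2 gave 0.60 (adjusted p = 0.0121) and limma-voom 0.75 (adjusted p = 0.00727). Without *Ctrl* 3, the highest control, it was 0.76 with an edgeR adjusted p of 0.0254. With any other single liver left out, the edgeR adjusted p of *Ier3* ran from 0.131 to 0.322.

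*Tnfaip3* (ENSMUSG00000019850, chromosome 10 from 19000910 to 19015657), which encodes the ubiquitin-editing enzyme that ends TNF receptor signalling, had 5.53, 4.61, 3.54 and 4.42 CPM against 4.55, 4.40, 3.66 and 3.69 CPM. The lowest value of all 8 livers was that of *Srsf10-kd* 3 and the groups overlapped, with a log2 fold change of 0.15 (standard error 0.16, 95% interval -0.21 to 0.51, edgeR adjusted p = 0.575). It was 0.10 without *Ctrl* 3, 0.04 without *Srsf10-kd* 1 and 0.25 without *Srsf10-kd* 3. *Bcl3* (ENSMUSG00000053175, chromosome 7 from 19808462 to 19822770), a nuclear IκB-like coactivator, had 17.7, 21.5, 26.2 and 22.3 CPM against 20.8, 20, 13.9 and 27.7 CPM. *Ctrl* 3 and *Ctrl* 4 were the lowest and the highest of the 8 livers. The *Bcl3* log2 difference was 0.09 (standard error 0.20, 95% interval -0.35 to 0.53, edgeR adjusted p = 0.795) and turned to -0.06 without *Ctrl* 3. Its exons overlap those of Gm16175 on the opposite strand, so part of its count is uncertain.

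**Figure D2:**
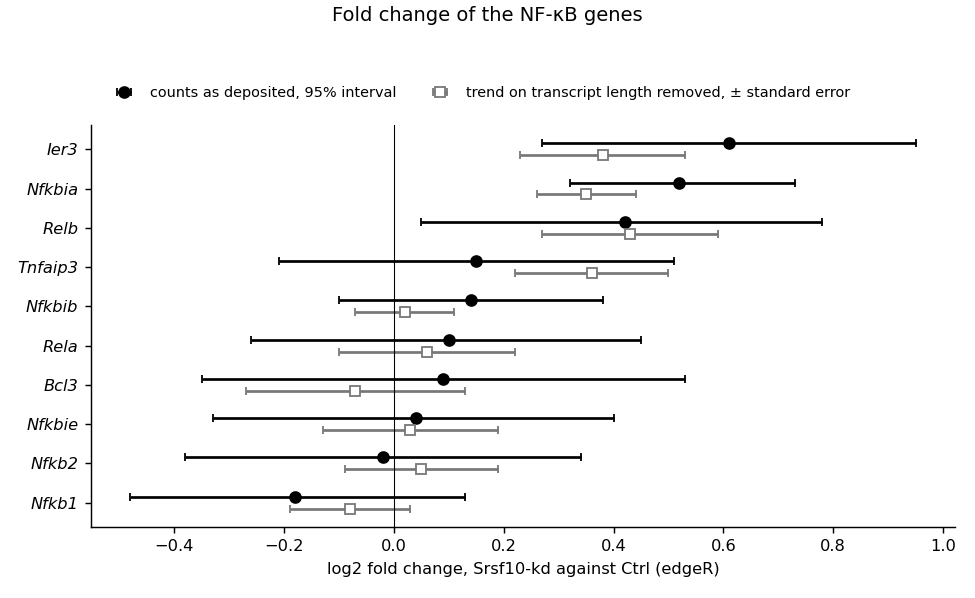
Log2 fold change of each gene, *Srsf10-kd*-labelled livers against *Ctrl*; circles are edgeR estimates with 95% intervals and squares the estimates after removal of each library's trend on transcript length, with ± 1 standard error. The intervals of *Ier3*, *Nfkbia* and *Relb* lie above 0 on the counts as deposited, and *Ier3* and *Nfkbia* move toward 0 after the removal while *Tnfaip3* moves away from it.

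Fold changes in these libraries varied with transcript length, and *Ier3* and *Nfkbia* have short transcripts. The longest annotated transcript has 1131 bases for *Ier3* and 1578 bases for *Nfkbia*. The 1657 tested genes within 1.2-fold of the length of *Nfkbia* had a median of 0.19 on the log2 fold change scale, and the 1017 genes within 1.2-fold of *Ier3* one of 0.31. Each library's trend on length, taken from log2 levels relative to each gene's mean over the livers, was then removed. The log2 fold change was then 0.35 for *Nfkbia* (edgeR adjusted p = 0.187) and 0.38 for *Ier3* (adjusted p = 0.28) in edgeR's quasi-likelihood test. *Relb*, with 3273 bases, kept 0.43 (edgeR adjusted p = 0.261), where genes of its length had a median of -0.02. *Tnfaip3*, the longest of the 10 with 6199 bases, went from 0.15 to 0.36 (edgeR adjusted p = 0.265), where the 1833 genes of like length had a median of -0.23. The other 6 genes lay between -0.08 and 0.06 after the removal.

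Levels of different genes were compared per kilobase of the longest transcript. In *Ctrl*, *Nfkbia* had the highest level of the Rel, IκB and feedback genes with 33.3 ± 2.33 CPM per kb (SD, n = 4). *Rela* followed with 12.6 ± 2.82 and *Bcl3* with 11.1 ± 3.06 CPM per kb. Next were *Nfkbib* (7.26 ± 0.202 CPM per kb), *Nfkb1* (5.24 ± 0.831), *Ier3* (4.11 ± 0.866), *Nfkbiz* (2.90 ± 0.253) and *Nfkb2* (1.82 ± 0.353). The remaining genes were under 1 CPM per kb in *Ctrl*, in the order *Rel*, *Nfkbie*, *Tnfaip3*, *Relb* and *Nfkbid*. The *Ctrl* ranges of *Rela* and *Bcl3*, *Bcl3* and *Nfkbib*, *Nfkb1* and *Ier3*, *Rel* and *Nfkbie*, and *Nfkbie* and *Tnfaip3* overlapped, so these neighbours could not be ordered beyond their spread. In the *Srsf10-kd*-labelled livers, *Ier3* at 6.02 to 6.61 CPM per kb lay above *Nfkb1* at 3.99 to 5.10 CPM per kb in all 4 livers.

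**Figure D3:**
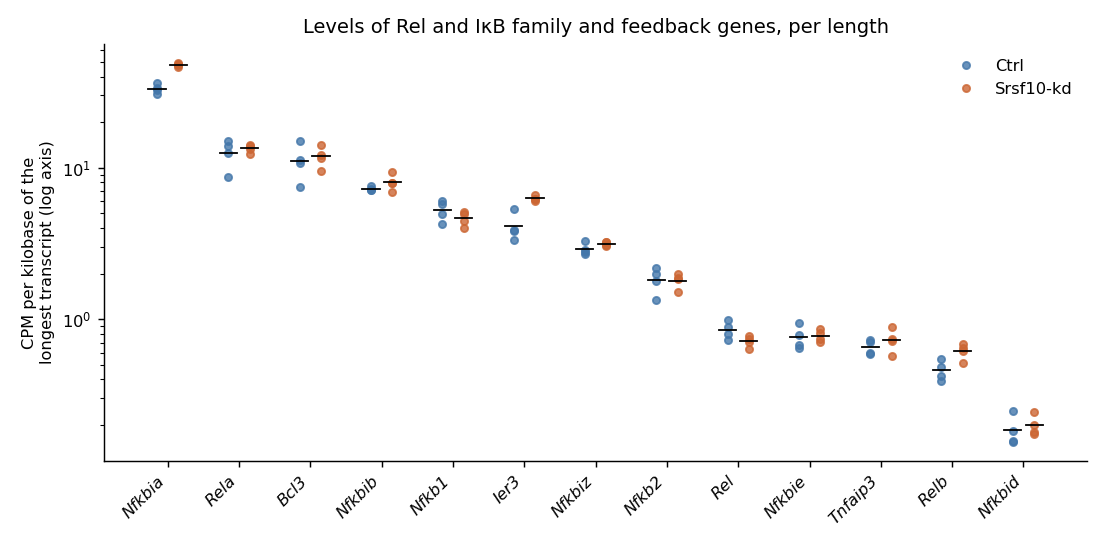
Level of the Rel, IκB and feedback genes in CPM per kilobase of the longest transcript on a log axis, 1 point per liver with a line at each group mean, ordered by the *Ctrl* mean. *Nfkbia* is the highest in both groups, at 30.6 to 36.3 CPM per kb in *Ctrl* and 46.2 to 49.2 CPM per kb in the *Srsf10-kd*-labelled livers.

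The balance of inhibitor to subunit RNA within a liver was described by ratios of these per-length levels. *Nfkbia* to *Nfkb1* was 9.88, 9.05, 12 and 10.8 in *Srsf10-kd*-labelled livers 1 to 4 and 5.66, 6.81, 8.58 and 5.07 in *Ctrl*, without overlap. *Nfkbia* to *Rela* was 3.74, 3.27, 3.85 and 3.45 against 2.16, 2.69, 4.18 and 2.18. *Ctrl* 3 thus had the highest *Nfkbia* to *Rela* ratio of all 8 livers, and the other 3 *Ctrl* livers lay below the *Srsf10-kd*-labelled livers. Between IκB genes, *Nfkbia* to *Nfkbib* was 7.12, 5.85, 5.13 and 6.12 against 4.58, 4.70, 4.80 and 4.25, again without overlap. Ratios with *Nfkbia* carry its own group difference, and how often ratios of other genes separate was not tested. Genes of like length had a median log2 fold change of 0.19 for *Nfkbia* and -0.1 for *Nfkb1*. The ratios were not corrected for that trend. *Rela* to *Nfkb1*, the subunits of the canonical dimer, was 2.64 to 3.14 against 2.05 to 2.61, so the ranges all but touched. *Relb* to *Nfkb2* overlapped, at 0.261 to 0.402 against 0.181 to 0.407.

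The genes with the pattern nearest to that of *Nfkbia* over the 8 livers were found among 10966 genes with a mean log2 CPM of at least 1, by the root mean square difference of log2 CPM centred on each gene's mean. The nearest 5 were *Elmo1* (0.0729), *Fstl1* (0.089), *Klf6* (0.0964), *Gmds* (0.0975) and *Tagln2* (0.1), where the median gene was at 0.345. Their log2 fold changes were 0.43 to 0.55, which follows from the choice, as the measure includes the difference between the groups. Of the NF-κB genes, *Ier3* was nearest at 0.147 with 94 genes closer, followed by *Nfkbib* at 0.235 with 1721 genes closer. This order too depends on each gene's group difference and does not show shared regulation. *Relb* was under the level required.

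The wider pathway was read from 6 lists of 86 genes, of which 79 could be tested, and again 0 had an adjusted p under 0.05 in edgeR's quasi-likelihood test. The log2 fold change was above 0 for 38 and below 0 for 41, with a median of -0.04. By the unadjusted p, 7 (8.86%) were higher and 12 (15.2%) lower, beside the 11.2% and 10.6% of all genes. The groups did not overlap for 5 of the 79 in the higher and 9 in the lower direction, beside 6.73% and 7.53% of all genes. DESeq2 called 2 higher (*Cxcl1* and *Tapbp*) and 4 lower (*Map3k7*, *Tab3*, *Ripk1* and *Itch*), beside 2.02% and 3.25% of all genes. Of these, *Map3k7* and *Tapbp* are named after their values were seen, and *Tapbp* overlaps other genes.

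Of 10 kinases and kinase partners, 9 had a log2 fold change below 0, with a list median of -0.31, and 4 of these (*Ikbke*, *Map3k7*, *Tab1* and *Tab3*) had an unadjusted p under 0.05, where 10.6% of all genes were lower by that measure. With the trend on transcript length removed, 7 of the 10 were below 0 and the median was -0.14. *Tab3*, which recruits the kinase TAK1 to ubiquitin chains, had 7.55, 8.03, 6.91 and 8.21 CPM in the *Srsf10-kd*-labelled livers and 9.53, 11.3, 10.9 and 12.2 CPM in *Ctrl*. Those groups did not overlap, and the log2 difference was -0.52 (standard error 0.12, edgeR adjusted p = 0.113). *Chuk*, the IκB kinase α gene, was the gene of the list not below 0, at 0.01 (edgeR adjusted p = 0.976). *Tab3* has a transcript of 6364 bases and was at -0.29 with the trend on length removed (edgeR adjusted p = 0.261).

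Of 10 ligand genes, *Tnf*, *Lta*, *Cd40lg* and *Tnfsf11* had too few counts to be tested, *Tnf* with 5 to 12 counts per liver. Of the 6 tested, *Il18* had 8.13 ± 2.58 CPM against 5.33 ± 1.36 CPM in *Ctrl* (SD, n = 4) and a log2 fold change of 0.61 (edgeR adjusted p = 0.202), which was 0.29 with the length trend removed and 0.26 with limma-voom. *Il1b*, the interleukin-1β gene, had 0.915 ± 0.322 CPM against 1.33 ± 1.16 CPM, a difference within the spread of the controls. Among 23 receptors and adaptors, 12 were above 0 and 11 below, with a median of 0.03, and 2 had an unadjusted p under 0.05 in the higher direction (*Cd14* and *Ly96*) and 3 in the lower (*Tlr4*, *Ripk1* and *Traf6*), both near the 11.2% and 10.6% of all genes. *Ripk1*, the kinase that couples TNF receptor complexes to NF-κB and to cell death, had 14.3, 14.8, 7.02 and 13.8 CPM in the *Srsf10-kd*-labelled livers and 22.7, 22.5, 20.7 and 22.5 CPM in *Ctrl*. The groups did not overlap, and *Srsf10-kd* 3 was far below the rest. The difference was -0.82 on the log2 scale (standard error 0.21, edgeR adjusted p = 0.116) and -0.61 with the length trend removed, and its exons overlap those of Gm17084 and *Serpinb6a*. *Ly96*, which encodes the coreceptor of the lipopolysaccharide receptor, had 3.93 ± 1.19 CPM against 2.7 ± 0.326 CPM (log2 fold change 0.54, edgeR adjusted p = 0.191), and its log2 fold change was 0.16 with the length trend removed and 0.32 with limma-voom.

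Of 15 genes of ubiquitin editing and IκB degradation, 10 were below 0, the median was -0.10, and *Cyld*, *Otud7b*, *Tax1bp1* and *Itch* had an unadjusted p under 0.05, each lower, where 10.6% of all genes were. With the length trend removed, *Cyld* and *Otud7b* were at 0.04 and 0.01, *Tax1bp1* at -0.13 and *Itch* at -0.20 on the log2 scale. *Itch*, a ubiquitin ligase that works with the *Tnfaip3* product, had 62.0 ± 6.38 CPM against 80.9 ± 5.69 CPM in *Ctrl* (SD, n = 4, log2 fold change -0.38, edgeR adjusted p = 0.130). *Sigirr*, an inhibitory receptor of the interleukin-1 family, had 17.4 ± 1.1 CPM against 14.9 ± 1.25 CPM (log2 fold change 0.22, edgeR adjusted p = 0.240), and its log2 fold change was 0.10 with the length trend removed.

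Most inflammatory and survival targets had fold changes above 0. Of 22 tested, 16 did, with a median of 0.24 (17 with a median of 0.12 once the length trend was removed), and *Cxcl1*, *Sele*, *Lcn2* and *Tapbp* had an unadjusted p under 0.05 in the higher direction and *Mmp9* in the lower, beside 11.2% and 10.6% of all genes. *Lcn2*, the lipocalin 2 gene, had 39.4, 13.5, 14 and 6.24 CPM in the *Srsf10-kd*-labelled livers and 5.53 to 9.83 CPM in *Ctrl*, so its groups overlapped and *Srsf10-kd* 1 was far above the rest. *Cxcl1*, a chemokine that attracts neutrophils, had 7.32, 5.04, 5.45 and 4.33 CPM in the *Srsf10-kd*-labelled livers and 3.61, 2.96, 3.28 and 3.04 CPM in *Ctrl*. Its groups did not overlap, and the log2 difference was 0.78 (standard error 0.17, edgeR adjusted p = 0.113) and 0.64 with the length trend removed. *Mmp9*, a matrix metalloproteinase gene at 10 to 23 counts per liver, had the lowest log2 fold change of the list, -0.76 (edgeR adjusted p = 0.147), and groups that did not overlap. *Ccl20*, *Il6* and *Nos2* had too few counts to be tested.

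**Figure D4:**
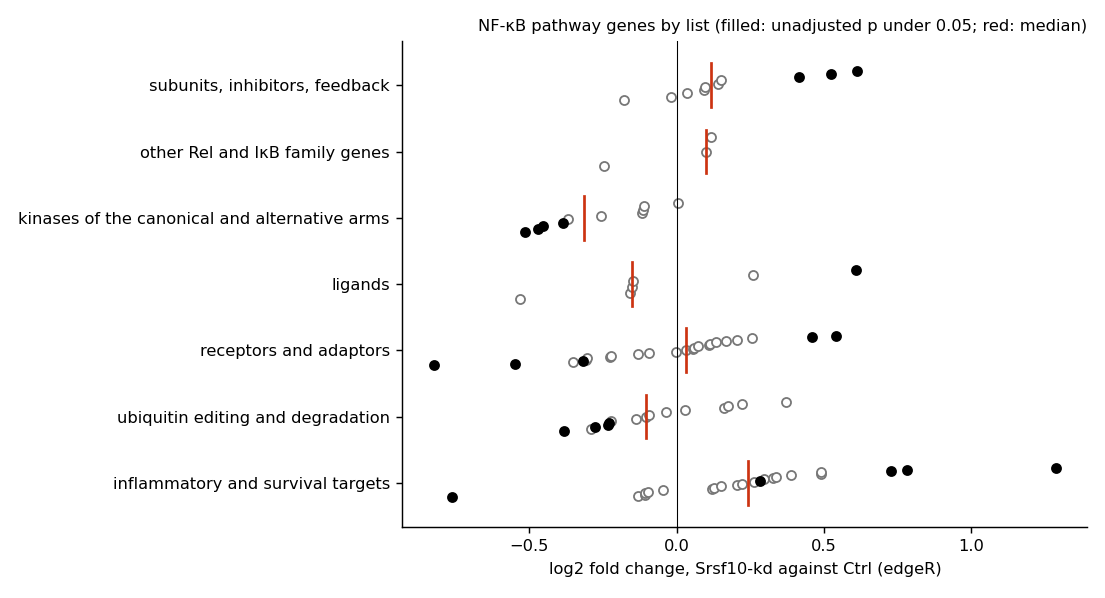
Log2 fold change of each tested gene of the NF-κB pathway, by list; filled points have an unadjusted p under 0.05 in edgeR's quasi-likelihood test and red lines are list medians. Kinases lie mostly below 0 (median -0.31) and inflammatory and survival targets mostly above it (median 0.24).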

How the data were processed

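Per the labels and the study's methods, the authors used STAR 2.7.7a on GRCm38 and deposited its raw, unnormalized read counts per Ensembl gene for each of the 8 livers. The annotation release, strand column and read filters are not given in the sources used here. Each column was matched to 1 liver by its label, and no pair of columns was a duplicate (lowest chi-square per degree of freedom 46.5). Counts were analysed in R 4.3.3 with edgeR 4.0.16 (TMM, filterByExpr, two-sided quasi-likelihood test on group, Benjamini-Hochberg adjustment over 15491 genes, threshold 0.05). Log2 levels used a prior count of 2. Alternatives were DESeq2 1.42.0, limma-voom (limma 3.58.1) with quality weights, other scalings and filters, a replicate block, livers left out, and removal of each library's lowess trend (span 0.5) on transcript length. Symbols, positions and longest transcripts come from GENCODE M21, which holds 45143 of the 45706 identifiers. Promoters come from RefSeq. The genes, lists and rules were chosen with earlier results of these data known. All 10 genes are named. From each pathway list the gene with the smallest unadjusted p in each direction is named, and others only where a count is spelled out. *Lcn2*, which had the largest log2 fold change of its list (1.29), was described per liver outside this rule. The labels do not say whether livers share a litter or batch, and p-values measure the spread between these livers. Scripts were tested on simulated counts.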

Additional observations from a re-analysis of the deposited data

How the results depend on the processing

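The number of genes past adjusted p 0.05 in edgeR's quasi-likelihood test, 11, was 46 with no filter on low counts, 59 with the replicate number as a block and 6 with the length trend removed, and it was 824 with DESeq2 and 1814 with limma-voom. With 1 liver left out it ran from 0 (without *Srsf10-kd* 1, 2 or 4 or *Ctrl* 2, where 2154 to 3656 genes had an unadjusted p under 0.05) through 4 without *Ctrl* 1, 5 without *Ctrl* 4 and 64 without *Srsf10-kd* 3 to 544 without *Ctrl* 3, and it was 1342 without *Ctrl* 3 and *Srsf10-kd* 3. The fits with a single liver left out leave 7 livers and the cause of these differences was not tested. Of the 10 NF-κB genes, the count past the threshold was 0, and 2 (*Nfkbia* and *Ier3*) with DESeq2, with limma-voom, without *Ctrl* 3 and without *Ctrl* 3 and *Srsf10-kd* 3. With 1 liver left out it ran from 0 to 2. Of the 79 pathway genes it was 6 with DESeq2, 8 with limma-voom, 6 without *Ctrl* 3 and *Srsf10-kd* 3, and 0 to 1 with 1 liver left out (*Ripk1*, without *Srsf10-kd* 3). Beside both counts, DESeq2 called 824 of all 15643 genes tested and limma-voom 1814 of 15491. The fits called 544 of 15682 genes without *Ctrl* 3, 64 of 15680 without *Srsf10-kd* 3 and 1342 of 15560 without both. *Nfkbia* passed with DESeq2 (0.51, adjusted p 6.28e-06), limma-voom (0.54, adjusted p 0.00627), without *Ctrl* 3 (0.57, range 0.49 to 0.57 with 1 liver left out) and without both livers numbered 3 (0.57, adjusted p 0.00974), and *Ier3* in the same fits, without both at 0.78 (adjusted p 0.0104). The directions of genes near 0 turned. With 1 liver left out, *Nfkbie* ran from -0.04 to 0.15, below 0 without *Srsf10-kd* 1, *Ctrl* 1 or *Ctrl* 4. *Nfkb2* was at 0.01 with limma-voom, 0.05 with the length trend removed and -0.14 to 0.08 with 1 liver left out, above 0 without *Srsf10-kd* 3, *Ctrl* 1 or *Ctrl* 4. *Rela* ran from -0.05 without *Ctrl* 3 to 0.19 without *Ctrl* 1 and was at -0.01 without both livers numbered 3. *Bcl3* was at -0.01 with limma-voom, -0.07 with the length trend removed, -0.06 (without *Ctrl* 3) to 0.27 with 1 liver left out, with 0 without *Srsf10-kd* 3, and -0.15 without both. With 1 liver left out, *Tnfaip3* ran from 0.04 to 0.25, *Nfkbib* from 0.06 to 0.21, *Nfkb1* from -0.27 to -0.11 and *Relb* from 0.34 to 0.51, none past the threshold. Samples with the same number deviated together with correlations of -0.18, 0.21, 0.27 and 0.22. The best partner bore the same number for livers 2, 3 and 4, and the number 4 for liver 1. Whether the numbers mark pairs was left undecided, and the main fit did not pair them. With the replicate number as a block *Nfkbia* was at 0.53 (adjusted p 0.0638 in edgeR's quasi-likelihood test) and 0 of the 10 genes passed. Of the Rel, IκB and feedback genes, *Relb*, *Nfkbie* and *Nfkbid* had 16 to 149 counts per liver, which limits their precision.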
